A study of Drosophila melanogaster with 4 samples.

Results

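Chromatin accessibility was described at 8 nuclear receptor genes of the ecdysone cascade, EcR, usp, Eip75B, Eip78C, Hr3, Hr4, Hr39 and ftz-f1, in wings of female Drosophila melanogaster pupae. An accessible site was a peak of the authors' FAIRE-seq lists. FAIRE-seq sequences the DNA that crosslinked, sheared chromatin releases into the aqueous phase of a phenol extraction, which is mostly nucleosome-depleted DNA. A peak was assigned to a receptor gene when its summit lay in the gene body (dm6) or within 10 kb of it, and peaks of the 4 libraries that overlapped by at least 1 bp were merged into 1 region. This gave 238 regions of 24088 in the whole data set, and 167 of the 15813 that at least 2 libraries held (shared regions). The rule used gene and summit positions and no peak strength.

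Both genotypes carried homozygous osa-GFP, a tagged allele of osa, whose product is an ARID-domain subunit of Brahma, a nucleosome remodeler of the SWI/SNF type, and the transgene UAS-Nslmb-vhhGFP, which encodes an F-box fragment joined to an anti-GFP nanobody that targets GFP-tagged protein for degradation (deGrad). In the Osa-deGrad genotype (2 libraries) the wing driver nub-GAL4 switched this transgene on, and the control genotype (2 libraries) had the transgene with no driver. Animals were raised at 23 °C, moved to 29 °C as wandering larvae, staged as prepupae at 0 to 12 h after puparium formation (APF) and dissected 24 h later, at 24 to 36 h APF. Each library pooled 40 wings, so cells within and outside the driver's domain cannot be told apart. Neither the loss of Osa protein nor RNA was measured in these libraries. The labels do not say that replicates came from separate crosses, so the spread between them may be technical.

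Ecdysone acts through a heterodimer of the receptor EcR and its partner Usp, the fly RXR. The hormone-bound dimer switches on early genes, several of which encode further nuclear receptors, and these switch later genes on or off and so time the steps of metamorphosis. Eip75B encodes a heme-binding receptor that can block Hr3, Eip78C encodes a related receptor, Hr3 and Hr4 hold down early genes and help to induce ftz-f1, and the ftz-f1 product makes tissues competent to respond to the next hormone pulse. Hr39 is a close relative of ftz-f1. In the pupal wing, hormone pulses precede the deposition of cuticle, the growth of wing hairs and the final differentiation of veins and intervein cells.

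The lists held 13959 peaks in Osa-deGrad 1, 17048 in Osa-deGrad 2, 13953 in control 1 and 18007 in control 2, and the receptor genes held 165, 173, 145 and 194 of them. Read depth is unknown from these files, and both lists numbered 2 were the longer ones. Wing genes were accessible, with 37 of 62 shared regions of nub, vg, sd, ap, rn and bs (59.7%) in all 4 lists. Over all shared regions the share was 50.0%. Genes that mark other cells also held regions in all 4 lists, namely 3 of 7 for hemocyte, 6 of 23 for muscle, 6 of 9 for tracheal, 9 of 18 for neuron and glia and 6 of 12 for fat body markers. The part of such cells in the results was not tested.

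Most of the accessible chromatin at the receptor genes was common to both genotypes. Of the 167 regions in at least 2 lists, 99 (59.3%, 95% Wilson interval 51.7 to 66.4, counting error only) had a peak in all 4 libraries, against 50.0% of all shared regions. Another 33 regions were in 3 lists and 35 in 2 lists. The remaining 71 of the 238 regions were peaks of 1 library only. Regions found in both Osa-deGrad libraries and in no control numbered 2 (1.20%, interval 0.329 to 4.26), against a background of 3.35%. Regions found in both controls and in no Osa-deGrad library numbered 9 (5.39%, interval 2.86 to 9.92), against 5.45%. With every list cut to the length of the shortest, the order turned, with 5 deGrad-only and 2 control-only regions. The shares over all regions under this cut are not given here, so the turn cannot be read against a background. The control-only share of the full lists thus lay at the background, and the background deGrad-only share lay within the interval of the receptor genes.

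**Figure D1:**
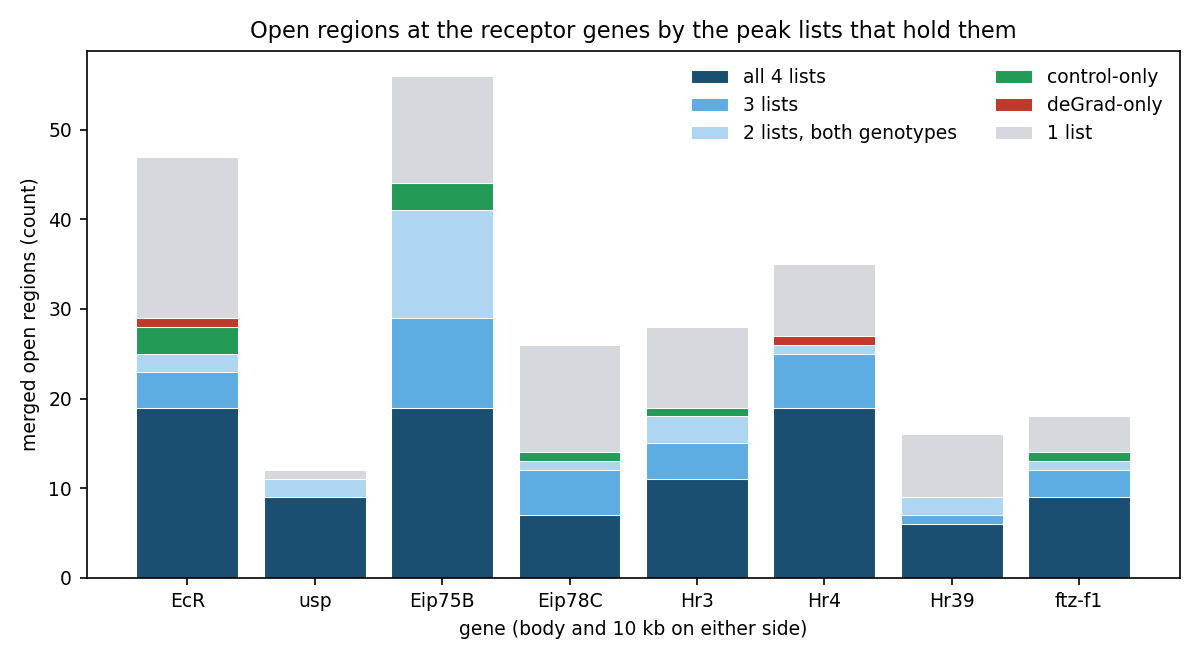
Number of merged accessible regions per receptor gene (body and 10 kb on each side), split by the libraries that held a peak. Regions in all 4 lists made up the largest shared class at each gene, from 6 at Hr39 to 19 at EcR, Eip75B and Hr4, and the 2 deGrad-only and 9 control-only regions were few at every gene.

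The 2 genes of the hormone receptor itself differed in size and in what surrounded them. EcR (chr2R:6087873-6169087) held 29 regions in at least 2 lists, 19 of them in all 4, with 29 and 35 peaks in the Osa-deGrad libraries and 29 and 30 in the controls. Its strongest region (chr2R:6134172-6135288), inside the gene and 46.6 kb from its lower-coordinate end, ranked at the 98.6 and 97.8 percentile of the Osa-deGrad lists and at 98.5 and 99.5 in the control lists. These full-list percentiles order the peaks of 1 list by the authors' −log10 q value and place a peak within its own library only. The authors' fold enrichment at its summit was 14.2 and 10.2 in Osa-deGrad, against 14.9 and 14.6 in the controls. Fold, here and below, was used as deposited and was not put on 1 scale between the libraries. A further region in the gene (chr2R:6108268-6109135) ranked between 96.2 and 97.5 in the 4 lists.

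Part of the EcR window was marked by tRNA genes, which lie in a cluster within and beside the gene. Of its 29 shared regions, 8 had a summit within 500 bp of the end of a tRNA gene, and none of the other 7 receptor genes had such a region. Of the 8, 3 were in all 4 lists. The one 8 bp from tRNA:Asn-GTT-1-3 (chr2R:6153421-6153693) ranked at 80.0 and 74.0 in Osa-deGrad, against 43.5 and 68.1 in the controls. The one 30 bp from tRNA:Arg-ACG-1-3 (chr2R:6168847-6169716) ranked at 55.9 and 66.3 against 38.1 and 58.1. It also spanned the upper end of EcR itself, which lay 490 bp from its summit. The one 8 bp from tRNA:Lys-CTT-1-5 (chr2R:6171444-6171805) ranked at 8.73 and 34.6 against 52.0 and 44.0. As full-list percentiles, the values of these regions place each peak within its own library only. Such regions are assigned to EcR by position only.

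usp (chrX:2038798-2042311) is short and lies within the body of Actn, the gene of α-actinin. It had 11 shared regions, 9 of them in all 4 lists (81.8%), and 0 that were specific to a genotype. Peaks numbered 13 and 12 in Osa-deGrad, against 12 and 15 in the controls. The strongest region (chrX:2035806-2037443) lay 2176 bp below usp, inside Actn, at percentiles of 99.9 and 99.7 in Osa-deGrad, against 99.3 and 99.9 in the controls. The region across the upper end of usp (chrX:2041671-2042597) ranked at 84.4 and 99.2 against 89.3 and 92.0. All 9 shared regions outside the usp body lay inside other protein-coding genes, so their link to usp rests on distance alone.

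Eip75B (chr3L:17950953-18064696) was the largest of the genes and held the most regions, 56 in all and 44 in at least 2 lists. Only 19 of the 44 (43.2%) were in all 4 lists, the lowest share among the 8 genes. Peaks numbered 37 and 42 in Osa-deGrad, 26 in control 1 and 45 in control 2. Control 1 held 56.8% of the 44 regions and control 2 held 95.5%, with the Osa-deGrad libraries between them at 72.7% and 84.1%. The 3 other libraries shared 9 regions that control 1 lacked. The strongest region (chr3L:18012800-18013769), 62.6 kb inside the gene and 24216 bp from any gene end, ranked at 98.8 and 99.9 in Osa-deGrad, against 98.8 and 99.7 in the controls, with the authors' fold at 14.7, 13.8, 15.3 and 15.8.

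Eip78C (chr3L:21226609-21266503) held 14 shared regions, 7 of them in all 4 lists. It had 13 and 12 peaks in Osa-deGrad, against 14 and 21 in the controls. A further 12 regions were in 1 list, 8 of them in control 2 alone. Its strongest region (chr3L:21224724-21225446) lay 1489 bp below the gene and outside any protein-coding gene. Its percentiles were 97.4 and 96.3 in Osa-deGrad, against 95.6 and 94.9 in the controls.

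Of the early-late genes, Hr3 (chr2R:10203995-10237348) had 19 shared regions and 11 in all 4 lists, with 20 and 16 peaks in Osa-deGrad, against 16 and 21 in the controls. It had a pair of regions above the 95 percentile in every list. The stronger (chr2R:10213811-10214436) ranked at 99.7 and 99.8 in Osa-deGrad, against 99.3 and 97.4 in the controls. The other (chr2R:10227776-10228399) ranked between 96.8 and 98.7, and its summit lay 240 bp from an end of CG46321, which overlaps Hr3. Hr4 (chrX:1941940-2007956) had 27 shared regions and 19 in all 4 lists (70.4%), with 31 and 31 peaks in Osa-deGrad, against 28 and 32 in the controls. Its strongest region (chrX:1968516-1969080) ranked at 94.0 and 87.7 in Osa-deGrad, against 95.4 and 98.2 in the controls, and a region across its lower end (chrX:1941682-1942409) at 74.4 and 87.3 against 57.5 and 85.9.

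The related receptors ftz-f1 and Hr39 came next. ftz-f1 (chr3L:18750607-18801309) had 14 shared regions and 9 in all 4 lists, with 15 and 13 peaks in Osa-deGrad, against 13 and 16 in the controls. The strongest lay in the gene (chr3L:18758984-18759706) at percentiles of 97.6 and 93.5 in Osa-deGrad, against 99.4 and 96.9 in the controls. A region across its upper end (chr3L:18801265-18801700) ranked at 89.5 and 97.7 against 73.8 and 85.0. Hr39 (chr2L:21237250-21259675) had 9 shared regions and 6 in all 4 lists, with 7 and 12 peaks in Osa-deGrad, against 7 and 14 in the controls. By the mean percentile over the lists that held a peak, the rule used for each gene, its strongest region (chr2L:21240002-21240337) was in 3 lists, at 83.3 and 89.7 in Osa-deGrad and 74.5 in control 2, and had no peak in control 1. Its mean of 82.5 lay close to the 81.8 of a region in all 4 lists (chr2L:21250746-21251124), at 79.3 and 77.1 in Osa-deGrad, against 91.6 and 79.3 in the controls.

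**Figure D2:**
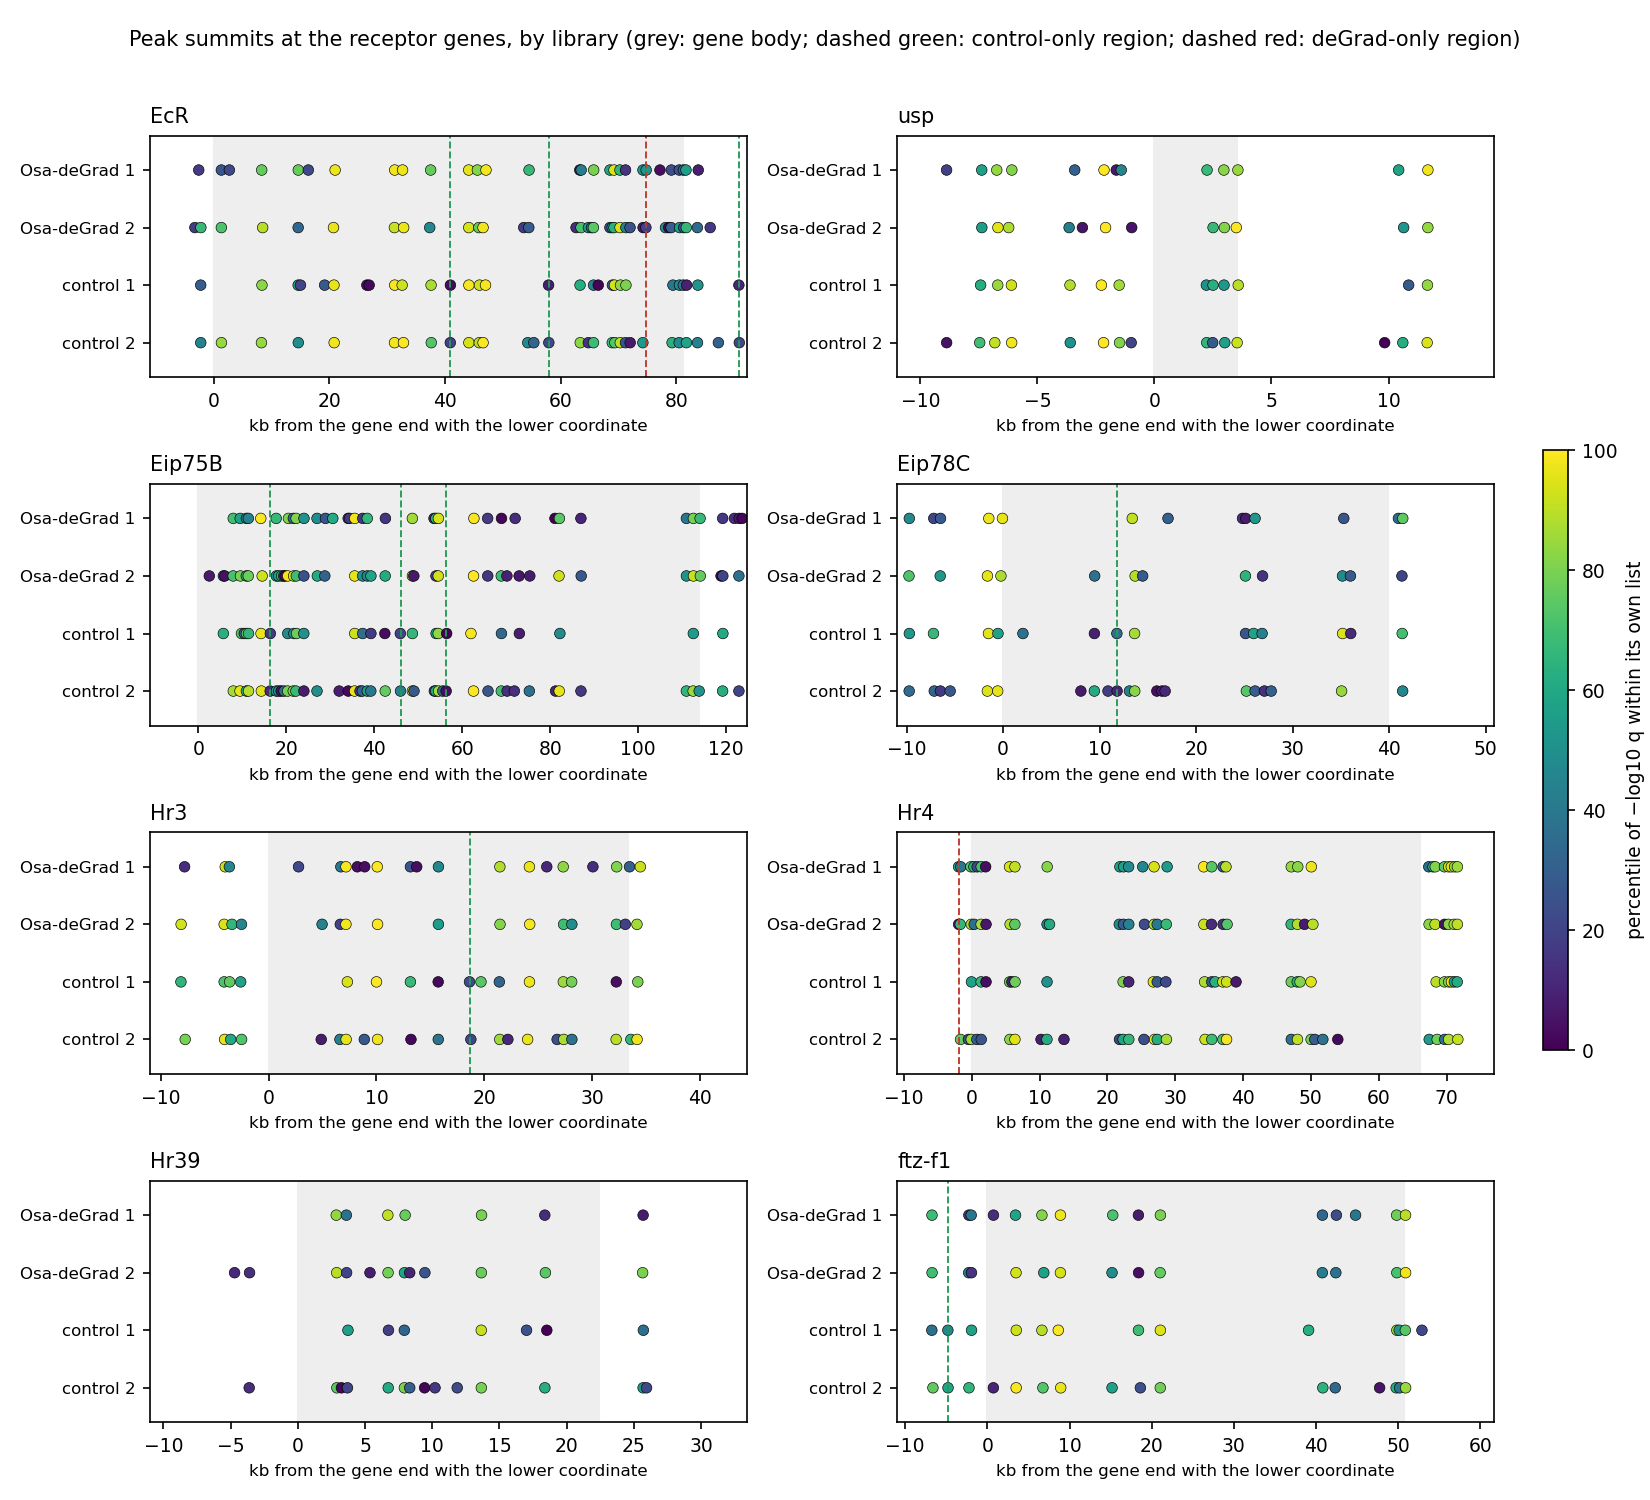
Peak summits along each receptor gene in the 4 libraries (rows), by distance in kb from the gene's lower-coordinate end, with the gene body in grey, colour for the full-list percentile and dashed lines at control-only (green) and deGrad-only (red) regions. Most regions of EcR, Eip75B and Hr4 lay inside long bodies, whereas 9 of the 11 shared regions of usp lay in its flanks.

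For each of the 8 genes, the number of shared regions lay above the median of 4 for the 13935 protein-coding genes, and it ranged from 9 at Hr39 to 44 at Eip75B. Per 10 kb of window the receptor genes had between 1.98 (ftz-f1) and 4.68 (usp) shared regions, against a median of 1.75 over protein-coding genes. Across the 99 regions in all 4 lists, the median width was 597 bp, against 461 bp for all such regions. Of the 99, 6 (6.06%, interval 2.81 to 12.6) ranked above the 95 percentile in every list, against 2.29% of all regions in 4 lists. These were a pair each at EcR and Hr3 and 1 each at usp and Eip75B.

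Most shared regions at the receptor genes had their summit more than 500 bp from any gene end. Of the 167 shared regions, 125 (74.9%) had their summit in a receptor gene body, near the share of the windows that the bodies cover (71.97%). Summits within 500 bp of the end of any annotated gene made up 39 of the 167 (23.4%, interval 17.6 to 30.3), against 47.8% of all shared regions. The share was 14 of 125 (11.2%) in the bodies and 25 of 42 (59.5%) in the flanks. By gene it ran from 9.09% at Eip75B to 41.4% at EcR. There a tRNA gene had the nearest end for 8 of the 12. Away from gene ends, 78 of 128 regions (60.9%, interval 52.3 to 69.0) were in all 4 lists, against 48.5% of all such regions. Near gene ends the shares were 21 of 39 (53.8%, interval 38.6 to 68.4) and 51.6%. The gene table gives ends without strand or exons, so promoters inside these long genes were counted as away from an end.

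The 11 genotype-specific regions were weak or middling peaks. None had both of its peaks above the 50 percentile of its lists. At EcR, 3 regions were control-only. They ranked at 2.64 and 19.3 (chr2R:6128660-6128913), at 8.50 and 21.7 (chr2R:6145683-6145894) and at 10.2 and 21.3 (chr2R:6178621-6178829), the last 90 bp from tRNA:Arg-ACG-1-5. At Eip75B, 3 control-only regions in the gene body ranked at 17.1 and 11.1 (chr3L:17967174-17967385), at 20.1 and 42.8 (chr3L:17996630-17997051) and at 0.631 and 3.37 (chr3L:18007226-18007435). Single control-only regions lay in Eip78C (chr3L:21238229-21238504, 37.7 and 9.63) and in Hr3 (chr2R:10222518-10222839, 23.4 and 21.1). The strongest control-only region lay below ftz-f1 (chr3L:18745718-18745937), 40 bp from MED11, a gene of the Mediator complex, at 46.5 and 58.4.

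Both deGrad-only regions lay beside other genes. The one in EcR (chr2R:6162522-6162758) was 36 bp from tRNA:Lys-CTT-1-2 and had percentiles of 52.9 and 19.1. The one below Hr4 (chrX:1939802-1940107) lay in CG3857, 24 bp from its end, at 59.3 and 9.97. Of the 9 control-only regions, 2 had a gene end within 500 bp. In the whole data set, 52.3% of 530 deGrad-only and 15.8% of 862 control-only regions were this close to one. The intervals for 2 of 2 (34.2 to 100%) and 2 of 9 (6.32 to 54.7%) both held these shares. The receptor genes thus could not be told from the background in this respect. usp and Hr39 had 0 regions of either kind.

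Presence also varied between the libraries of a genotype. Of the 167 shared regions, Osa-deGrad 1 held 136 (81.4%, against 73.4% of all shared regions), Osa-deGrad 2 held 146 (87.4%, against 88.5%), control 1 held 122 (73.1%, against 71.2%) and control 2 held 161 (96.4%, against 91.5%). The highest and the lowest share were thus the 2 controls, and both Osa-deGrad libraries lay between them. Of the 33 regions in 3 lists, 22 (66.7%, interval 49.6 to 80.2) were missing from control 1 alone, against 50.2% of all regions in 3 lists. Osa-deGrad 1 alone missed 7 of them, Osa-deGrad 2 alone 3 and control 2 alone 1. Of the 22, Eip75B held 9, Hr4 4, and EcR and ftz-f1 3 each.

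**Figure D3:**
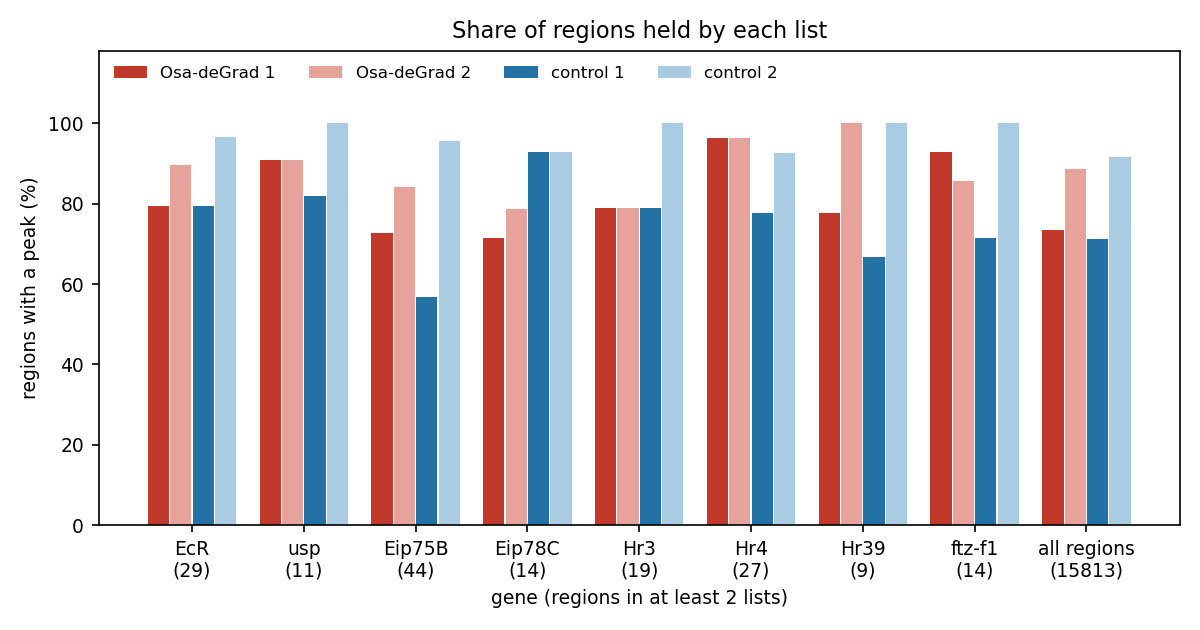
Share of each receptor gene's regions in at least 2 lists (percent) that had a peak in each of the 4 libraries. Control 1 fell to 56.8% at Eip75B and 66.7% at Hr39, where control 2 reached 95.5% and 100%.

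How strongly the regions in all 4 lists ranked was compared after re-ranking the 7900 regions present in every list among themselves, which puts the libraries on 1 scale of percentiles (common percentile). Ranks give a region's place among other regions and not its absolute signal. At the 99 receptor gene regions the median difference, Osa-deGrad minus control, was 0.358 percentile points, against 0.559 over all 7900. The mean of Osa-deGrad was the higher one at 52 of the 99 regions and the lower one at 47. The median gap between the genotype means was 10.4 points at these regions and 12.2 over all 7900. Between the single replicates it was 14.9 and 14.9 points for Osa-deGrad and 18.9 and 17.1 for control, and gaps between means of 2 libraries are smaller than gaps between single libraries by construction. limma with Benjamini-Hochberg adjustment over the 7900 regions called 0 (0%) at 0.05. Before adjustment it gave 1 higher region of the 99 (1.01%, against 2.09% of all) and 5 lower ones (5.05%, interval 2.18 to 11.3, against 3.46%). In 12 of the 99 regions both Osa-deGrad ranks lay above both control ranks, against 18.0% of all regions, and in 15 they lay below, against 17.6%. As shares these were 12.1% (interval 7.07 to 20.001) and 15.2% (interval 9.40 to 23.5), and both intervals held the background.

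**Figure D4:**
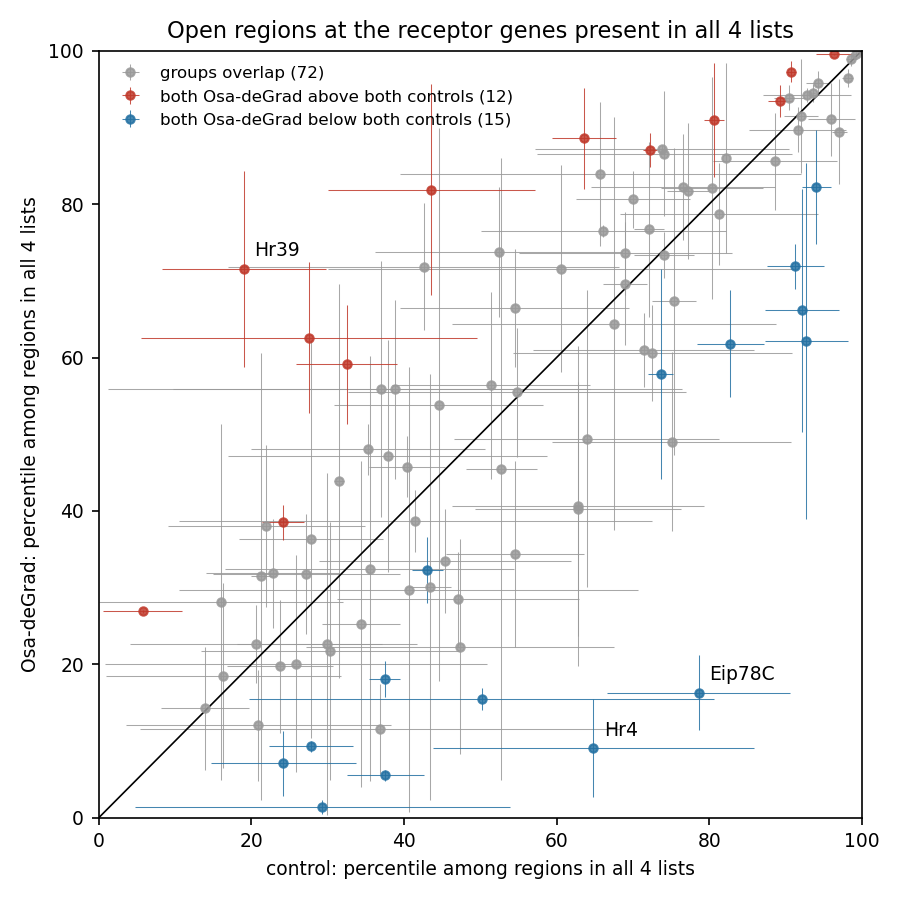
Common percentile of the 99 regions in all 4 lists, with the control mean on the horizontal and the Osa-deGrad mean on the vertical axis. Bars span the 2 replicates of a genotype. Both Osa-deGrad ranks lay above both controls at 12 regions (red) and below them at 15 (blue), and at the other regions (grey) the genotypes overlapped.

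The largest separated difference was a lower rank in Osa-deGrad in the upper part of the Eip78C body (chr3L:21261515-21262126). Its common percentile was 11.4 and 21.2 in Osa-deGrad, against 90.6 and 66.7 in the controls, a difference of -62.3 points (SE 24.4, limma adjusted p = 0.848). The authors' fold enrichment there was 4.05 and 4.51 against 10.6 and 7.24. In the Hr4 body (chrX:1978718-1979145) the values were 15.4 and 2.75 in Osa-deGrad, against 85.8 and 43.8 in the controls (-55.7 points, SE 22.3, limma adjusted p = 0.848). Below usp, inside Actn (chrX:2035056-2035803), they were 14.0 and 16.9 against 80.6 and 19.8. At that region control 2 lay close to both Osa-deGrad libraries, and control 1 alone was high.

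The largest difference in the other direction was at Hr39 (chr2L:21243816-21244210), with a common percentile of 84.4 and 58.8 in Osa-deGrad, against 8.28 and 29.8 in the controls, a difference of 52.5 points (SE 24.3, limma adjusted p = 0.848). An Eip75B region (chr3L:17971123-17971771) was at 68.1 and 95.7 in Osa-deGrad, against 30.0 and 57.2 in the controls. A region near the lower end of Hr4 (chrX:1943174-1943495) was at 52.8 and 72.4 against 49.6 and 5.56. At this region control 1 lay close to Osa-deGrad 1, and control 2 alone was low. None of these regions passed the adjusted test. Hr4 thus held regions with separated ranks in each direction, as did EcR, Eip75B, Hr3 and ftz-f1.

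Summarised by gene as the median common percentile of its regions, the order over the 4 libraries ran from usp (72.7 ± 5.61, SD over the 4 libraries) and Hr3 (72.7 ± 7.89) through Hr4 (65.6 ± 5.89), ftz-f1 (59.6 ± 13.6), EcR (56.6 ± 12.5), Eip78C (56.4 ± 6.25) and Eip75B (52.0 ± 8.81) to Hr39 (36.0 ± 15.0). The ranges of neighbours in this order overlapped in each case. At the other 6 genes than usp and Hr39 the genotypes overlapped. EcR was at 61.7 and 46.5 in Osa-deGrad, against 71.9 and 46.4 in the controls, and ftz-f1 at 63.9 and 47.1 against 76.9 and 50.6. In both genes the libraries numbered 1 were high and those numbered 2 low. Eip75B was at 46.6 and 60.7 against 42.6 and 58.3, the reverse order by number. Hr3 was at 80.2 and 72.1 against 61.9 and 76.5, Hr4 at 69.6 and 65.3 against 70.2 and 57.4, and Eip78C at 60.2 and 48.6 against 54.4 and 62.5.

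The genotypes did not overlap at Hr39 and usp, with differences of opposite sign. Hr39 was at 40.8 and 53.8 in Osa-deGrad, against 18.5 and 30.9 in the controls, a difference of 22.6 points (47.3 ± 9.22 against 24.7 ± 8.77, SD, n = 2). This median rests on 6 regions, and the median of their single differences was 9.69 points. usp was at 69.0 and 67.7 in Osa-deGrad, against 74.4 and 79.9 in the controls, a difference of -8.87 points (68.3 ± 0.931 against 77.2 ± 3.87, SD, n = 2), although the median difference over its 9 regions was 1.74 points. With 2 libraries a genotype the exact two-sided permutation test cannot give a p below 0.333, so neither gene can pass it. With no genotype effect, a gene would be expected to separate in this way at a rate of 0.333. The share over all genes was not counted. The usp sign turned to 4.59 points when flanks were left out, to 0.239 when merging asked for a wider overlap of peaks, and to 6.40 without control 1. The Hr39 sign turned to -20.3 points with a −log10 q minimum of 10 and to -11.3 with a minimum of 5, and held when any 1 library was left out. At each of the other 7 genes the sign turned without at least 1 of the libraries, namely without Osa-deGrad 1 at Hr3 and Hr4, without Osa-deGrad 2 at EcR, Eip75B and ftz-f1, without control 1 at EcR, Hr3, ftz-f1 and usp, and without control 2 at Eip78C.

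**Figure D5:**
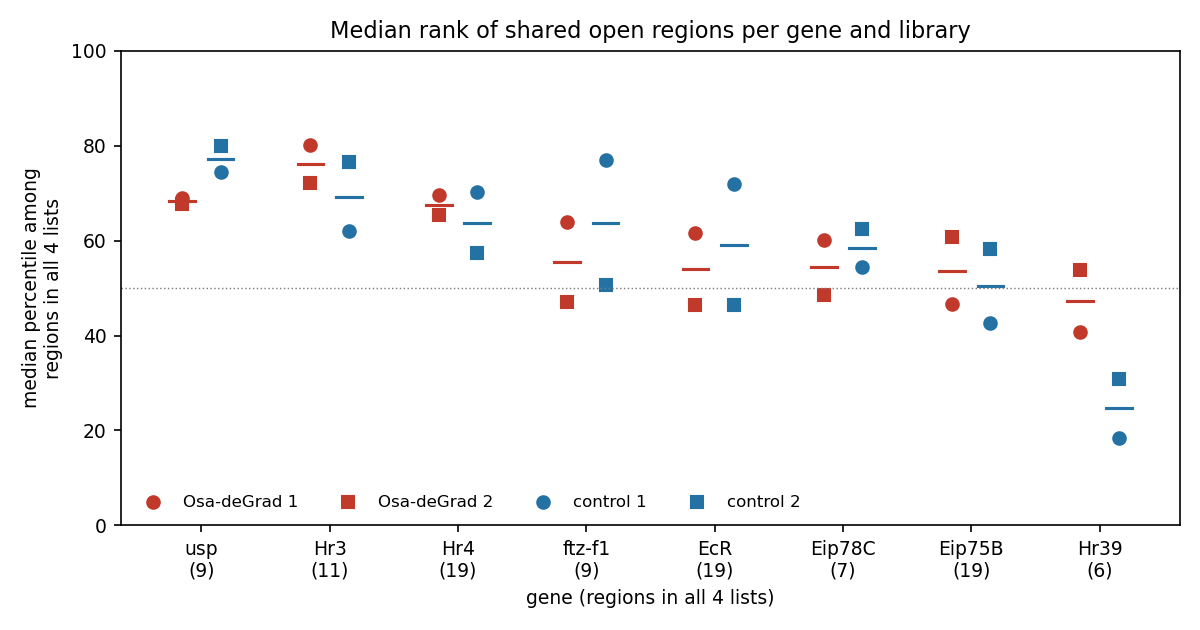
Median common percentile of each receptor gene's regions in all 4 lists, 1 point per library. The Osa-deGrad and control points overlapped at 6 genes, and did not overlap at Hr39 (Osa-deGrad higher) and usp (Osa-deGrad lower). With 2 libraries a genotype neither gene could pass an exact permutation test. With no genotype effect a gene would separate at a rate of 0.333, and the share over all genes was not counted.

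Other genes of the hormone pathway were counted in the same way. The ecdysone-induced regulators br, Eip74EF, Eip93F, Blimp-1, Kr-h1 and crol, which encode transcription factors, held 76 shared regions, 42 in all 4 lists (55.3%), 1 deGrad-only and 5 control-only. Of the 5, Eip93F, which acts at the onset of adult differentiation, held 3, and Eip74EF, an ETS factor gene of the early response, held 2. Among the 42, ranks were separated upward in 7 and downward in 9. Cofactors of the receptor and the hormone importer (tai, Smr, alien, trr, bon and Oatp74D) held 77 shared regions, 44 in all 4 lists (57.1%), 2 deGrad-only and 7 control-only. The coactivator gene tai supplied 3 of the control-only regions and the corepressor gene Smr 2. Genes of hormone synthesis and breakdown (nvd, spo, phtm, dib, sad, shd and Cyp18a1) held 33, 16 in all 4 lists (48.5%), 0 deGrad-only and 1 control-only, the last at dib, and nvd held none. The 13 other nuclear receptor genes held 73, 37 in all 4 lists (50.7%), with 4 deGrad-only and 4 control-only. Ranks were separated upward and downward in 8 and 6 regions of the cofactor list, 2 and 5 of the synthesis list and 5 and 7 of the other receptors. Over all shared regions, 50.0% were in all 4 lists, 3.35% deGrad-only and 5.45% control-only. Of all regions in 4 lists, 18.0% were separated upward and 17.6% downward. No list was tested against the rest of the genome.

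Among the 1087 protein-coding genes with at least 10 shared regions, the 5 whose shares of regions by class were most like those of the pooled receptor genes were CG4622, if, Unc-76, rdx and sdt. The measure was the distance over 4 class shares. At these genes between 58.8% and 60.0% of shared regions were in all 4 lists, a likeness that the choice itself fixed.

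The 10 kb window cut between neighbouring peaks. At Eip75B the farthest peak inside lay 9891 bp from the gene (1.45 percentile, Osa-deGrad 1) and the nearest outside 10296 bp (62.1 percentile, Osa-deGrad 2). At EcR these distances were 9659 and 10934 bp, with percentiles of 21.3 and 28.2 in control 2.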

How the data were processed

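FAIRE-seq peak lists of 4 libraries, 1 per library and on dm6, were used as deposited. MACS2 2.1.2, deepTools 2.4.1, Bowtie2 2.3.4.1, Picard 2.2.4 and SAMtools 1.9 are listed, with no role, per the submitters' processing notes. Settings of the peak caller are not given in the sources used for this text. Per peak, the authors' lists give a fold enrichment (a ratio at the summit), −log10 p and −log10 q values, an integer score and the summit offset. The deposited score and −log10 p were not used in the results. No read counts were used, and a site with no peak may have fallen short of the calling threshold, so longer lists hold more weak regions.

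Gene bodies came from RefSeq (Release 6 plus ISO1 MT, which is dm6). EcI, phm and Alien are there as Oatp74D, phtm and alien. Percentiles were mean ranks of −log10 q. limma 3.58.1 (R 4.3.3, empirical Bayes with trend) was fitted to the common percentiles of all 7900 regions in every list, with Python 3.11.15 for the rest. On simulated data with the real noise, 200 of 7900 regions shifted by 2 normal-score units gave 0% adjusted and 84% unadjusted calls, and 100% adjusted calls at 0.1 of the noise, so 0 calls does not show equal ranks. Regions named were each gene's strongest (by mean percentile over the lists holding it), all genotype-specific ones and the 3 largest separated differences a direction. Others in the text, at gene ends, tRNA genes and above the 95 percentile, were chosen after their values were seen. The genes, lists and rules were chosen with earlier results of these data known. The planned motif search was not run and no sequence was used. The distance to a gene start was replaced by that to the nearest gene end. The series' design text describes CUT&RUN on larval discs, unlike the sample labels, which were followed.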

Additional observations from a re-analysis of the deposited data

How the results depend on the processing

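limma called 0 regions under every alternative, which says nothing about stability, since it also called 0 of the shifted regions on simulated data with the real noise. Of 112 gene rank differences under other settings, 93 kept their sign, with wide ranges such as -16.9 to 2.72 points at EcR, -3.25 to 11.2 at Eip75B and -20.7 to 2.48 at ftz-f1. The 112 include the replicate block, which cannot change a gene's difference, so part of the 93 was fixed in advance. The 5 kb window also repeated the main value at EcR, Hr4 and Hr39. With a −log10 q minimum of 10 the regions in all 4 lists fell from 99 to 42, control-only regions numbered 3, deGrad-only 1 and separated lower ranks 5. With a minimum of 5 these last 3 counts were 4, 0 and 8. With lists cut to equal length, control-only regions numbered 2 and deGrad-only regions 5, so their order turned. Shares of these classes over all regions are not given for these alternatives. In gene bodies alone, 12.6% of regions lay near a gene end, deGrad-only regions numbered 1 and separated lower ranks 9, and the rank difference averaged over the genes was -2.97 points, against 1.27 in the full window. Without summits inside other genes it was 3.85 points and deGrad-only regions numbered 1. The replicate block, which asks for the same sign in both same-numbered pairs, counted 22 higher and 27 lower regions, and limma with the block called 0. The labels do not state a pairing, and same-numbered libraries deviated together only weakly (r = 0.116 over regions). This r used ranks within each library, so it cannot show a shift that whole lists share. The lists numbered 1 held 13959 (Osa-deGrad) and 13953 (control) peaks, and those numbered 2 held 17048 and 18007. A batch by replicate number was not tested at the level of whole lists. Leaving out 1 library gave 13 to 35 control-only regions, 3 to 26 deGrad-only regions, 29 to 36 separated higher, 32 to 39 separated lower and a mean rank difference of -0.82 to 3.17 points; these counts rise by construction, since 1 list then decides a genotype. The mean rank difference turned negative without Osa-deGrad 1. By gene, the sign turned without Osa-deGrad 1 at Hr3 (-2.70 points) and Hr4 (-4.06), without Osa-deGrad 2 at EcR (2.72), Eip75B (-3.25) and ftz-f1 (0.401), without control 1 at EcR (1.47), Hr3 (-2.39), ftz-f1 (2.48) and usp (6.40), and without control 2 at Eip78C (0.197). The causes of the other moves were not tested. Read depth is unknown, so weak peaks missing from a list could not be told from closed chromatin.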
